A study of Mus musculus with 3 samples.

Results

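Aquaporins are small membrane channels that let water, and for some members glycerol and other small solutes, cross a cell membrane along its gradient. Classic water channels (*Aqp1*, *Aqp2*, *Aqp4* and *Aqp5*) are set apart from the aquaglyceroporins (*Aqp3*, *Aqp7* and *Aqp9*), which also pass glycerol, from *Aqp6* and *Aqp8*, which pass other small molecules, and from *Aqp11*, a distant member found on internal membranes. The choroid plexus epithelium (CPE), which secretes the cerebrospinal fluid (CSF), is known for abundant *Aqp1* protein in the membrane that faces the ventricle.

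The expression of these 10 aquaporin genes was measured in the CPE of 3 healthy adult female C57BL/6 mice. The members were the probes that carry the name of 1 of the 10 genes in the scanner files and are not control probes. There were 15 such probes of 41174 on the array: 3 each for *Aqp4* and *Aqp9*, 2 for *Aqp7* and 1 for each of the other genes. CPE cells had been laser dissected from frozen sections of the lateral ventricles and their RNA was amplified, labelled with Cy5 (red) and hybridised together with a Cy3 (green) common reference on 1 array per mouse. The reference was C57BL/6 RNA from retinal pigment epithelium (RPE) together with choroid, the same on all arrays, so it is 1 sample and its spread is technical. The dyes were not swapped, and a preference of a probe for a dye stays in its ratio. Both sides are mixtures or dissections, in which fewer cells of a type and less RNA per cell cannot be told apart.

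The labelled tissue was checked against its markers. Of 9 CPE markers on the array, 8 were higher in CPE than in the reference at an adjusted p under 0.05 and at least 2-fold, and each of the 9 passed the scanner's test of signal over background on every array in both channels. Ependymal markers, genes of motile cilia that CPE cells also carry, were higher for 4 of 4, and the cells behind their signal were not tested. Of 8 RPE and melanocyte markers, 7 were lower in CPE. Signal of these markers was nevertheless present there, as 7 of the 8 passed the background test in CPE on every array. By CPE intensity, *Dct* and *Pmel* stood at percentiles 92.5 and 93.1 among all probes. The source of this signal was not tested. The arrays differed in quality. By the scanner's flag, 58.5%, 46.0% and 85.6% of probes were well above background in the CPE channel of mice 1, 2 and 3. The array of mouse 3 had a background surface of 363 intensity units in that channel, against 81.2 and 82.6 on the other arrays, although the local background beside the spots was 58 against 57 and 56. Of 17015 probes that were dim in CPE on arrays 1 and 2, 70.8% were called well above background on array 3. A signal of a dim aquaporin on array 3 alone is therefore given below as measured, and no expression is read from it.

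Aquaporins fell into a measured and an unmeasured group. *Aqp1*, *Aqp3*, all 3 probes of *Aqp4*, *Aqp5* and *Aqp11* (7 probes in all) exceeded background in both channels of every array. *Aqp2* and *Aqp8* did so in the reference on every array. In CPE *Aqp2* did on 2 arrays and *Aqp8* on 1. The other 6 probes, of *Aqp6*, *Aqp7* and *Aqp9*, did not reach this in either channel on every array and were not tested. No aquaporin spot was saturated.

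**Figure D1:**
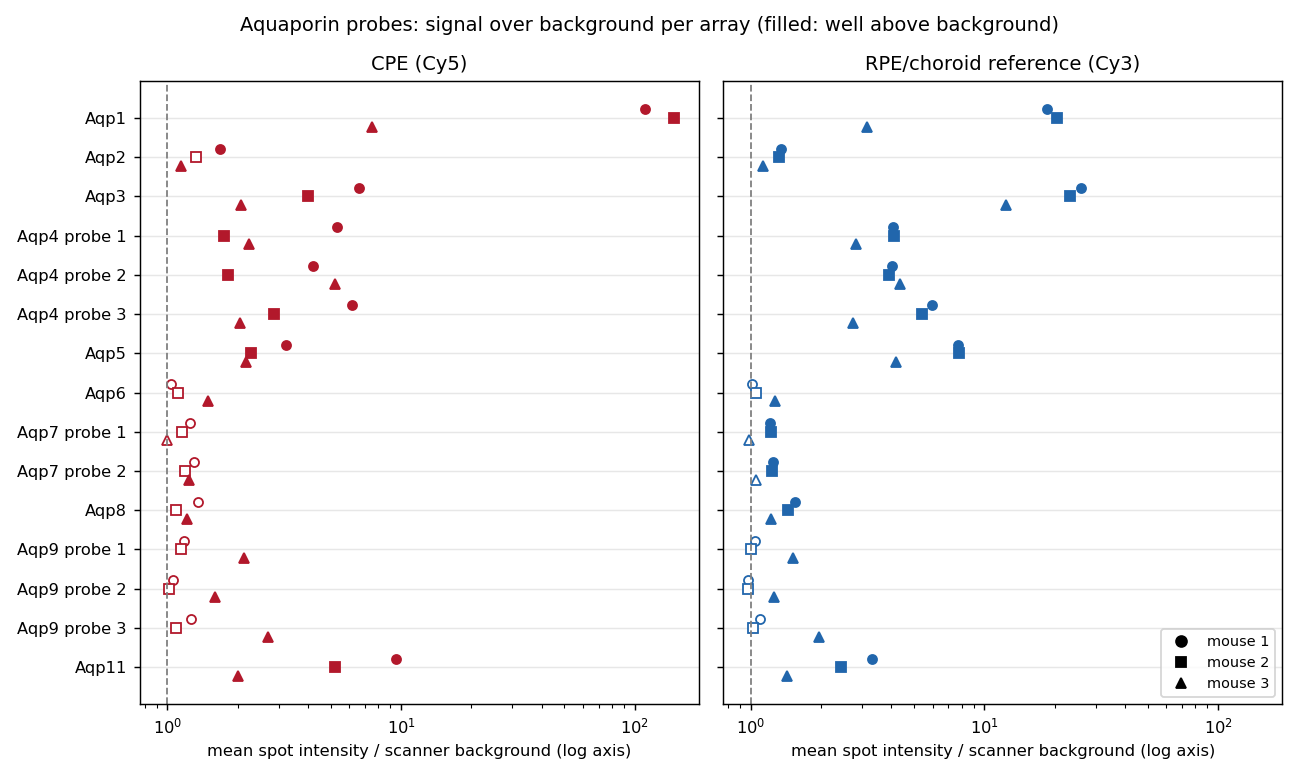
Mean spot intensity divided by the background the scanner software used, on a log axis, for the 15 aquaporin probes in the CPE channel (left) and the reference channel (right). Each symbol is the array of 1 mouse, and filled symbols are well above background. *Aqp1* in CPE lies far to the right in mice 1 and 2, at 111 and 147 times the background, and *Aqp6*, *Aqp7*, *Aqp8* and *Aqp9* lie near the dashed line at 1 on the arrays of mice 1 and 2. On that of mouse 3, *Aqp9* probe 3 reaches 2.71 in CPE and 1.96 in the reference.

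A first comparison asked where each aquaporin ranks in the CPE. Ranks follow the study's classes: log2 intensities were normalized between arrays, their mean over the mice was taken and the probes were sorted by it. Percentiles over 90 are called high, those of 50 to 90 moderate, those of 10 to 50 low and smaller ones very low. A rank places a probe on the array and does not order transcripts by abundance, since probes differ in how well they hybridise. *Aqp1* was the 1 aquaporin in the high class of the CPE. Moderate were 6 probes, of *Aqp3*, *Aqp4*, *Aqp5* and *Aqp11*, and low were 8, of *Aqp2*, *Aqp6*, *Aqp7*, *Aqp8* and *Aqp9*. In the reference, *Aqp3* and *Aqp1* were high, *Aqp4* and *Aqp5* moderate and 8 probes low, with 1 probe of *Aqp9* very low. *Aqp11* was counted as low there at 49.5, next to the class limit, with 60.5, 53.6 and 24.99 on the 3 arrays, and it was moderate under 5 of the alternatives (51.3 to 58.6).

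*Aqp1* stood at percentile 97.5 ± 2.92 (SD, n = 3) in CPE, with 97.6, 99.0 and 93.4 in the 3 mice, and was high in each of them. The mean ranks that came next were those of *Aqp3* at 74.5 ± 2.68 (SD, n = 3), *Aqp11* at 72.6 ± 19.6 (SD, n = 3) and *Aqp4*, at 66.4 to 72.4 over its probes. *Aqp5* followed at 63.0 ± 2.79 (SD, n = 3). Over the mice, the range of *Aqp3* overlapped those of *Aqp11* and of *Aqp4* probes 2 and 3, so their order is not beyond the spread, while *Aqp4* probe 1, at 59.7 to 69.3, lay below it. *Aqp11* shows how wide this can be: it stood at 77.9 and 77.7 in mice 1 and 2 and at 43.8 in mouse 3. Among the low probes the arrays disagreed further, and *Aqp9* probe 3, the nearest to the 3′ end of the gene, ranged from 18.9 to 64.7. The reference, 1 RNA on all arrays, also shifted on array 3 at these probes. On arrays 1, 2 and 3 it gave 60.5, 53.6 and 24.99 for *Aqp11* and 7.67, 5.75 and 60.6 for *Aqp9* probe 3. Spread between mice and between arrays cannot be told apart here.

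**Figure D2:**
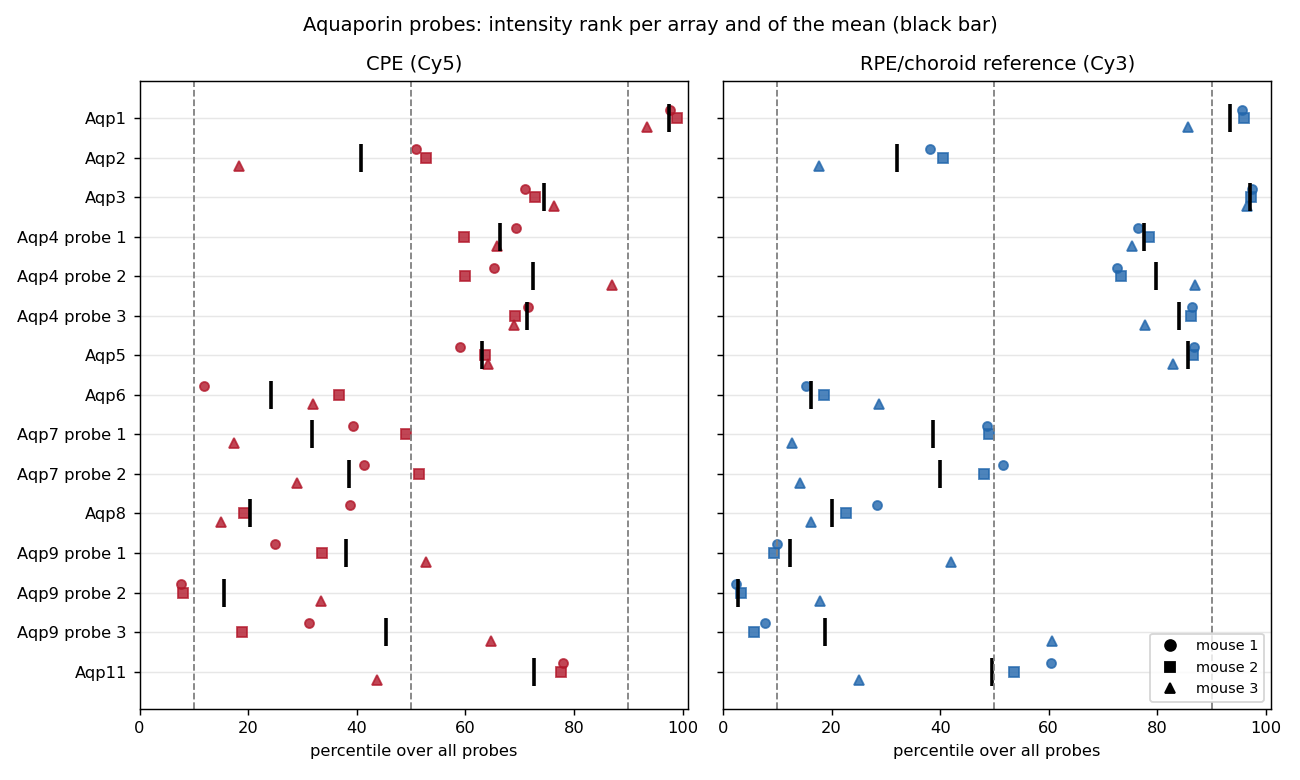
Percentile of each aquaporin probe among all probes, in the CPE channel (left) and the reference channel (right). Symbols are single arrays, black bars the rank of the mean over 3 arrays, and dashed lines the class limits at 10, 50 and 90. In CPE only *Aqp1* lies above 90 on all arrays, and in the reference *Aqp3* does.

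A second comparison asked which aquaporins differed between CPE and the reference. Of 9 probes of 7 genes tested, 1 was higher in CPE (*Aqp1*) and 3 were lower (*Aqp3*, *Aqp4* probe 3 and *Aqp5*). Past the threshold were thus 4 of 9 probes, where 17.3% of all 25841 probes tested were (7.09% higher and 10.2% lower). The median log2 ratio of the 9 probes was -0.53, which is the ratio of *Aqp4* probe 2, and that of all probes tested was -0.041. Of the 9 probes, 3 are of *Aqp4*, so this median does not weigh the genes equally. *Aqp1*, *Aqp11*, *Aqp2* and *Aqp8* (0.0067) had ratios above 0. *Aqp2*, *Aqp8*, *Aqp11* and *Aqp4* probes 1 and 2 did not pass. At an adjusted p under 0.05 with any fold, 6 of the 9 passed, against 39.2% of all probes tested. All p-values are from limma's moderated test over the 3 arrays, adjusted over all probes tested, and ratios are on the log2 scale, CPE over reference.

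**Figure D3:**
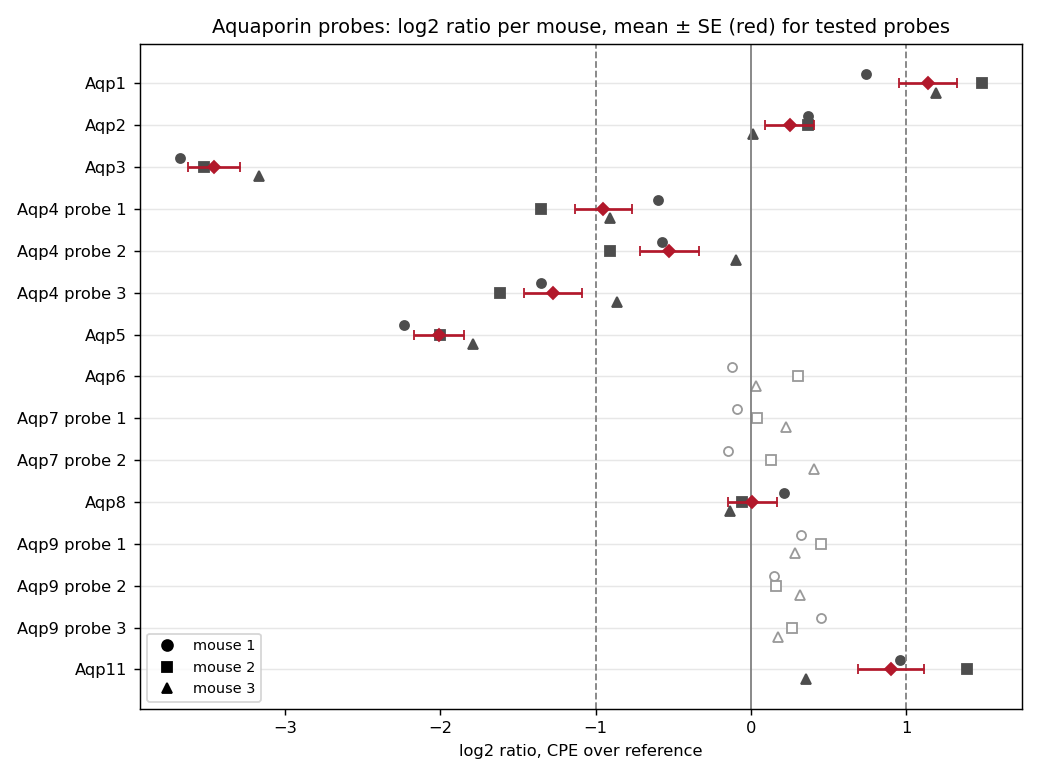
Log2 ratio of CPE over reference for each aquaporin probe on the array of each mouse, after background correction and loess. Red diamonds and bars are means ± SE of the 9 tested probes, open grey symbols are probes that were not tested, and dashed lines mark a 2-fold change. The ratios of *Aqp3* lie between -3.68 and -3.17 and those of *Aqp1* between 0.74 and 1.49.

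*Aqp1*, the water channel of the CSF-facing membrane, was higher in CPE than in the reference. Its probe lies on chromosome 6, 55278064 to 55278123 (build mm8, plus strand). Mice 1, 2 and 3 had mean CPE intensities of 9381, 12750 and 3033. Those of the reference were 2474, 2678 and 788, so the array of mouse 3 gave the lowest value in both channels, although the reference RNA was the same. Within each array the CPE channel was the brighter one before normalization. The log2 ratios were 0.74, 1.49 and 1.19, with a mean of 1.14 (SE 0.19, adjusted p 0.00267), or 2.20-fold higher in CPE. The direction was the same in 3 of 3 mice, and mouse 1 was under 2-fold. The size rests on the normalization: with each array centred on its median in place of loess the mean was 1.95, and mice 1, 2 and 3 had 2.03, 2.68 and 1.15. Without mouse 2 the mean was 0.96, under 2-fold and no longer past the threshold.

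*Aqp4* is the water channel of astrocyte endfeet and retinal Müller glia. It has 3 probes on chromosome 18 (minus strand), numbered here from the 5′ to the 3′ end: probe 1 at 15536642 to 15536701, probe 2 at 15536475 to 15536534 and probe 3 at 15536006 to 15536065 (mm8). CPE intensities of probe 3 were 526, 245 and 842 in mice 1, 2 and 3, and reference intensities were 803, 731 and 696. Its log2 ratios were -1.35, -1.61 and -0.86, with a mean of -1.28 (SE 0.19, adjusted p 0.00164), which is 2.42-fold lower in CPE. Probe 1 had ratios of -0.60, -1.35 and -0.90. Its mean of -0.95 (SE 0.19, adjusted p 0.00592) was past the p limit but below 2-fold. Probe 2, at -0.58, -0.91 and -0.094, did not pass (mean -0.53, SE 0.19, adjusted p 0.0633).

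After loess the 3 probes of *Aqp4* were below 0 on all 3 arrays, and mouse 2 gave the lowest ratio at each. With median centring probe 1 was at 0.082 in mouse 1, above 0. They differed in size. Probe 2 lay above probe 3 by 0.78, 0.71 and 0.77, a steady difference between probes whose nearest ends are 409 bp apart. Probe 1 lay above probe 3 by 0.75 in mouse 1 and below it by -0.043 in mouse 3. CPE intensities of probe 1 were 428, 142 and 788 in mice 1, 2 and 3, against 442, 439 and 658 in the reference. Those of probe 2 were 322, 139 and 1682, against 358, 340 and 942. Mouse 2 was lowest in CPE at both, and on array 3 CPE was the brighter channel before normalization and the reference was brighter than on the other arrays. The call of probe 3 was lost with median centring, at -0.83 (adjusted p 0.0614).

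*Aqp5*, the water channel of salivary and lacrimal glands and of the corneal epithelium, was lower in CPE. Its probe lies on chromosome 15, 99422734 to 99422792 (mm8, plus strand). CPE intensities were 250, 180 and 674 and reference intensities were 759, 728 and 918, so that the reference was brighter on each array. The log2 ratios of -2.24, -2.004 and -1.79 gave a mean of -2.01 (SE 0.16, adjusted p 0.000101), or 4.03-fold lower. The direction was the same in 3 of 3 mice.

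*Aqp2*, the vasopressin-regulated channel of the renal collecting duct, lies next to *Aqp5*, with 11576 bp between the probes, and *Aqp6* follows 10183 bp farther on. *Aqp2* (99410181 to 99411157, mm8) had CPE intensities of 137, 108 and 419, which were 1.68, 1.33 and 1.14 times the background, and it was not well above background in mouse 2. Its reference intensities of 151, 147 and 264 were also near the background, at 1.34, 1.32 and 1.13 times. The ratio was 0.25 (SE 0.16, adjusted p 0.258), with 0.37, 0.37 and 0.012 in the mice. With both channels this near the background, a difference of *Aqp2* from the reference was not detectable. *Aqp6*, an intracellular channel of the kidney (99432976 to 99433035), was well above background only on array 3, in both channels, and gave 1.04, 1.11 and 1.49 times the background in CPE.

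*Aqp8*, which also passes ammonia and hydrogen peroxide, has its probe on chromosome 7, 123259070 to 123259129 (mm8, plus strand). It was well above background in the reference on all arrays, at 134, 124 and 258, and in CPE in mouse 3 alone. CPE intensities of 105, 82.7 and 393 were 1.35, 1.09 and 1.21 times the background. Its ratio of 0.0067 (SE 0.16, adjusted p 0.978) was not detectable from 0 at these signals, and its sign turned to -0.76 (adjusted p 0.0550) when the scanner's own background surface was subtracted.

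*Aqp3*, the glycerol and water channel of keratinocytes and of the basolateral membrane of epithelia, had the largest difference among the aquaporins tested. Its probe lies on chromosome 4, 41281600 to 41281659 (mm8, minus strand). CPE intensities were 562, 353 and 816 in mice 1, 2 and 3, against reference intensities of 3604, 3083 and 3025. The reference was thus the brighter channel throughout, and CPE was nevertheless well above background in each mouse, at 6.59, 4.01 and 2.07 times. The log2 ratios were -3.68, -3.52 and -3.17, with a mean of -3.46 (SE 0.17, adjusted p 1.27e-05), or 11.0-fold lower in CPE. The mean stayed between -3.80 and -2.86 under all settings run.

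*Aqp7*, the glycerol channel of fat cells, is also on chromosome 4, with 58659 bp between its nearest probe and that of *Aqp3*. Its 2 probes (41222881 to 41222940 and 41222859 to 41222918, mm8) share 38 bp and are not independent. Probe 1 had 107, 100 and 411 in CPE and was not well above background in any mouse. Its reference values of 164, 165 and 251 were well above background on arrays 1 and 2 alone, at 1.21 and 1.22 times. Probe 2 gave 111, 105 and 492 in CPE, where only array 3 called it well above background, and 170, 162 and 261 in the reference. Neither was tested.

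*Aqp9*, the glycerol and urea channel of the liver, has 3 probes spread over chromosome 9 (minus strand), with probe 1 at 70931242 to 70931301, probe 2 from 70910926 to 70921390 and probe 3 at 70909926 to 70909985 (mm8). On arrays 1 and 2 none was well above background in either channel, and CPE intensities lay between 78.5 and 99.1. On array 3 all 3 were called well above background, with 739, 528 and 905 in CPE and 345, 273 and 426 in the reference. Mouse 3 thus stands apart at each *Aqp9* probe in both channels. Of all probes that were dim on arrays 1 and 2, most changed in the same way on array 3, as given above (69.0% in the reference channel), and the reference RNA was the same on all arrays.

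*Aqp11*, found on the endoplasmic reticulum, was near the threshold. Its probe lies on chromosome 7, 97601671 to 97601730 (mm8, minus strand). CPE intensities were 722, 387 and 625 and reference intensities were 266, 194 and 297, so before normalization CPE was brighter on each array. On array 3 the median intensity over all spots other than controls was also higher in CPE, at 684 against 379. The log2 ratios were 0.96, 1.39 and 0.36 and the mean was 0.90 (SE 0.21, adjusted p 0.0132), which is 1.87-fold and below the 2-fold limit. *Aqp11* was past the threshold without mouse 3 (1.17), with median centring (1.20) and with the scanner's processed ratio (1.15).

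Among the 7 probes that exceeded background in both channels throughout, the order of the ratios was *Aqp1* (1.14), *Aqp11* (0.90), *Aqp4* probes 2, 1 and 3, *Aqp5* (-2.01) and *Aqp3* (-3.46). *Aqp2* and *Aqp8*, which entered the test through the reference channel, are not placed in it. The ranges over the mice overlapped between *Aqp1* and *Aqp11* and between neighbouring *Aqp4* probes. The ranges of *Aqp11* and *Aqp4* probe 2, those of *Aqp4* probe 3 and *Aqp5*, and those of *Aqp5* and *Aqp3*, did not overlap. The difference between *Aqp1* and *Aqp11* is thus within the spread of the mice.

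**Figure D4:**
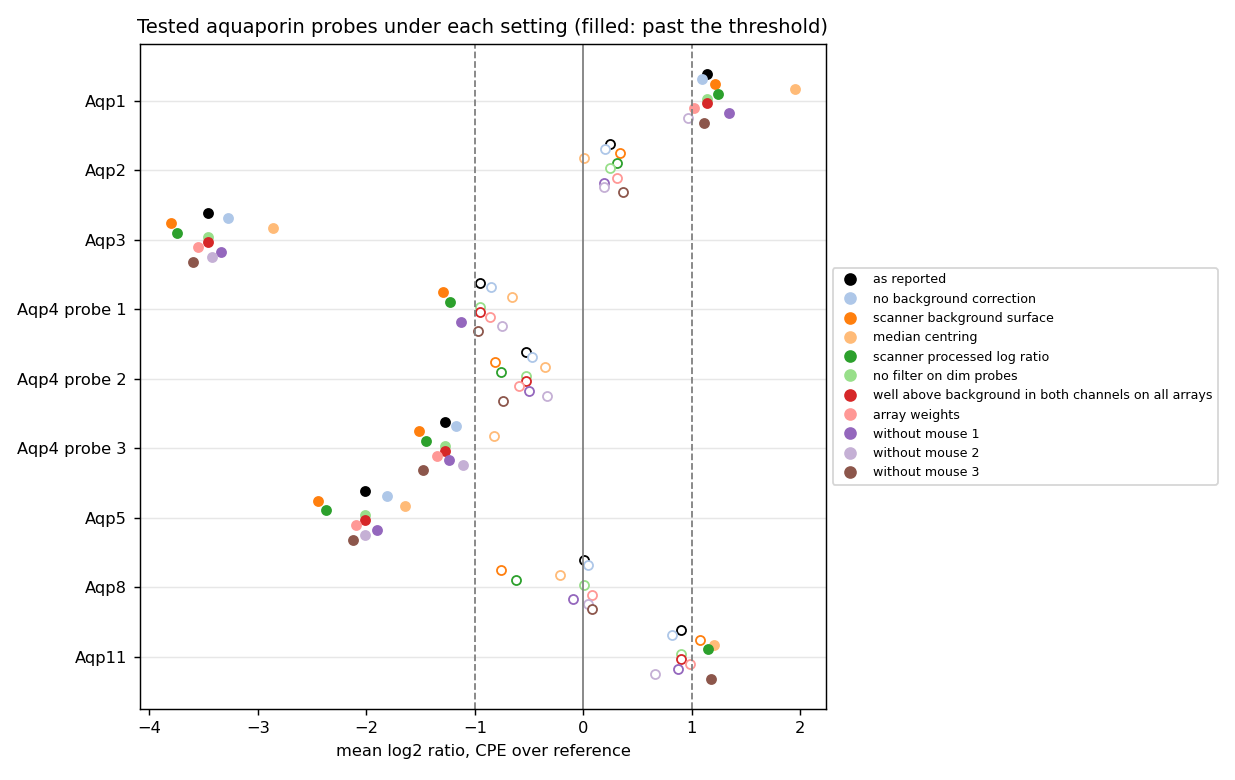
Mean log2 ratio of the 9 tested aquaporin probes under the reported setting (black) and 10 alternatives, with filled symbols past the threshold. *Aqp3* and *Aqp5* are filled throughout, and *Aqp1* moves from 1.14 to 1.95 with median centring. *Aqp8* has values on both sides of 0.

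The tissues on either side hold other cell types, whose markers were measured with the aquaporins. Markers of surface epithelium (cornea, conjunctiva and skin), where *Aqp3* and *Aqp5* are known, were lower in CPE for 5 of 6 genes, with a median of -2.93, led by the keratins *Krt5* (-3.72), *Krt12* (-3.45) and *Krt15* (-3.23). Their summed normalized intensity was 51087 to 64324 in the reference arrays and 10765 to 16773 in CPE, and 5 of the 6 were well above background in CPE in all mice. Of 8 astrocyte and Müller glia markers, 2 were lower (*S100b*, -3.45, and *Glul*, -1.71) and 2 were higher, *Sox9* (1.54) among them. Their sum was 41627 to 50622 in the reference and 32033 to 39869 in CPE. Skeletal muscle, another site of *Aqp4*, had 5 of 6 markers lower in CPE (median -2.19, sums of 5610 to 7978 in the reference and 1507 to 4607 in CPE). Ependymal markers went the other way, with 4 of 4 higher in CPE (median 3.28). Their sums were 883 to 1509 in the reference and 16868 to 24169 in CPE. Photoreceptors had 8 of 8 markers lower in CPE (median -4.78), with sums of 112732 to 129010 in the reference and 6106 to 9748 in CPE. Retinal RNA was thus measured in the reference. All 8 were nevertheless well above background in CPE in all mice, and *Gnat1* stood at percentile 93.6 there. The source of this signal was not tested. Fibroblast and stroma markers were lower for 5 of 6 and macrophage markers for 4 of 6. The part of these cell types in the lower *Aqp3*, *Aqp4* and *Aqp5* was not tested. Red blood cells and endothelium are both known for *Aqp1*. Of 5 red blood cell markers tested 3 were lower in CPE, and *Alas2* of haem synthesis (-1.12) had the smallest difference of these 3. The sums were 29617 to 50183 in CPE and 93401 to 104926 in the reference. Of 8 endothelial markers 1 was higher (*Tie1*, 1.21) and the median was 0.14. Their sums were 14487 to 21364 in CPE and 8980 to 11319 in the reference. The sums were taken after Aquantile, without the loess behind the ratios. Ratios of the endothelial markers went both ways. *Tie1*, *Pecam1* (0.95), *Cdh5* (0.94) and *Emcn* (0.38) were above 0. *Kdr* (-0.19), *Flt1* (-0.11), *Tek* (-0.33) and *Cldn5* (-0.54) were below 0. The part of endothelium in the higher *Aqp1* was not tested. Of 5 adipocyte markers, 3 could be tested and 1 was lower in CPE (*Fabp4*, -2.13).

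Partners of the aquaporins were followed by list, with 1 probe per gene. Over all 18078 genes tested, 1446 were higher in CPE and 2002 lower, and the median ratio was -0.042. The list of CSF secretion transporters, beside which *Aqp1* lets water follow, held 15 genes of transporters, channels and carbonic anhydrases. Of these, 11 were higher in CPE and 1 lower, with a median of 2.27. *Slc4a10*, a sodium bicarbonate transporter (4.18), *Kcne2*, a potassium channel subunit (4.17), and *Kcnk1*, a potassium channel (3.46), had the largest ratios, above that of *Aqp1*, and *Kcne2* and *Clic6* (2.35) are also among the CPE markers. Of 9 genes of the complex that anchors *Aqp4* at the membrane, 2 were higher, *Dtnb* (beta-dystrobrevin, 1.08) among them. *Dmd* (dystrophin, -1.52) was lower, and the median was 0.17.

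Of 12 genes of vasopressin signalling and *Aqp2* trafficking, 11 were tested, 3 were higher and 3 lower, with a median of -0.51. *Prkaca*, the catalytic subunit of protein kinase A, was higher (1.65), as was the motor *Myo5b* (1.36), and the membrane fusion gene *Stx3* was lower (-3.78). The vasopressin receptor *Avpr2* exceeded background on 2 of 3 arrays in each channel and was not tested. Of 7 genes of glycerol handling, which goes with *Aqp3*, *Aqp7* and *Aqp9*, 1 was higher (*Gpd1*, glycerol-3-phosphate dehydrogenase, 1.66) and 2 were lower, the lipase *Mgll* (-2.29) and glycerol kinase *Gk* (-1.13). The median was 0.33.

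**Figure D5:**
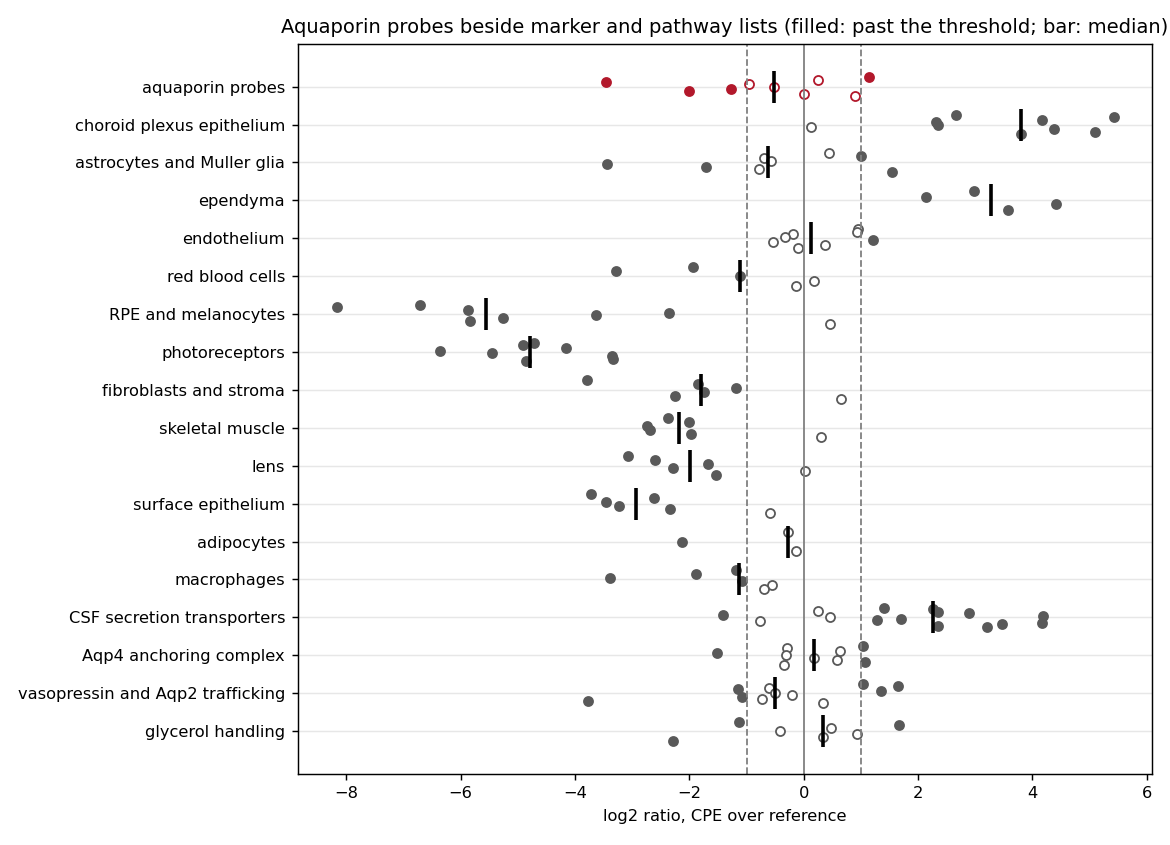
Log2 ratios of CPE over reference for the tested aquaporin probes (red, top row) and for the genes of each marker and pathway list, 1 probe per gene. Filled symbols are past the threshold, black bars are medians and dashed lines mark a 2-fold change. The aquaporins lie on both sides of 0, whereas CSF secretion transporters have a median of 2.27 and surface epithelium one of -2.93.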

How the data were processed

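The authors scanned 2-colour Agilent whole-genome mouse arrays with Feature Extraction 9.5.3.1, and the deposited scanner files give spot and background intensities on a linear scale, flags and, per the file headers, a log10 ratio of red over green. A deposited series table holds log2 CPE levels that the authors normalized with Aquantile (limma, R 2.14.0). It served as an alternative. Its rank correlation with the CPE channel was 0.998 to 0.999 over the arrays, against 0.848 to 0.928 with the reference channel.

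With R 4.3.3 and limma 3.58.1, intensities were corrected by normexp (offset 50) and loess within arrays. Of 43790 spots, 2256 were control spots, which were dropped along with outlier spots, and repeat spots of a probe were averaged. A probe that exceeded background on every array in 1 channel or both was fitted with an intercept (lmFit, eBayes, Benjamini-Hochberg), and it was called at an adjusted p under 0.05 and 2-fold. Classes used uncorrected mean intensities after Aquantile. For list genes the brightest probe over both channels stood for a gene. By rule, at most 3 called genes per list with the largest ratios were named. Named outside this rule were *Clic6*, *Pmel*, *Avpr2*, *Aqp12* and the endothelial markers other than *Tie1*. All member probes were named. Of them, 14 of 15 matched the reference gene table by accession. Coordinates are those of the files (mm8), and no annotation of that build was used. The procedure was tested on simulated data. The number of arrays limits the precision. Members and lists were chosen with earlier results of these data known. The values of 1 list gene are not reported here.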

Additional observations from a re-analysis of the deposited data

How the results depend on the processing

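*Aqp3* and *Aqp5* kept their direction and call under all 10 alternatives. The count of called probes was 4, and 5 with the scanner's background surface or without mouse 1 or 3, 6 with the scanner's processed ratio, 4 with median centring and 6 at an adjusted p under 0.05 with any fold. Leaving out a mouse gave 3 to 5, of which 0 to 2 were higher (0 without mouse 2, 2 without mouse 3) and 3 to 4 lower. Higher in CPE were 2 with median centring and with the processed ratio. The share called over all probes moved too, from 17.3% as reported. It was 22.7% with the background surface, 26.2% with the processed ratio and 21.6% with median centring. Without mice 1, 2 and 3 it was 15.6%, 16.7% and 20.6%, and 39.2% passed at any fold. *Aqp8*, at 0.0067, reversed to -0.76 with the background surface, -0.21 with median centring, -0.62 with the processed ratio and -0.097 without mouse 1 (-0.097 to 0.077 leaving out a mouse). The cause was not tested. *Aqp4* probe 1 passed with the background surface (-1.29), the processed ratio (-1.23) and without mouse 1 (-1.13).

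Over all probes, 4462 were called, 41.1% of them higher in CPE, and 6762 with the processed ratio. Median centring gave 5580, 67.0% of them higher, and moved the median ratio from -0.041 to 0.092. The background surface moved it to -0.15. Of the CPE percentiles, 128 values under alternatives moved by less than the spread between mice and 13 by more. *Aqp1* was high in CPE under all of them (94.4 to 98.5). Ranked only among probes well above background, the moderate probes fell to the low class, as fewer probes are ranked. With curated accessions *Aqp5* was also low, at 49.7. Each ratio pairs CPE with the reference on its array, and no further pairing of samples exists.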

Other observations

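*Mip*, the aquaporin of lens fibre cells (also known as aquaporin 0), was not among the 10 genes. It exceeded background in both channels of every array and was lower in CPE (log2 ratio -1.54, SE 0.19, adjusted p 0.000696 by limma), as were 5 of 6 lens markers, *Mip* included, in a list led by the crystallin *Cryaa* (-3.08). *Aqp12* was well above background on 1 array in each channel and was not tested.

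The genes whose ratios over the 3 arrays lay nearest to those of *Aqp1* were sought among 13319 genes measured in both channels. They were *Acbd5* (root mean square difference 0.12), *Stim2*, a calcium sensor of the endoplasmic reticulum (0.13), *Atp6ap2*, an accessory protein of the proton pump (0.14), *Cox6c*, a subunit of cytochrome c oxidase (0.14), and *Ppap2a* (0.14). With 3 arrays this is a description of these ratios.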
